A study of Mus musculus with 20 samples.

Results

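The 9 genes described here encode the hypoxia-inducible factor (HIF) subunits and the enzymes that tie HIF to oxygen, and they were taken by symbol from the 33495 genes of the deposited table of counts. They are the alpha subunits Hif1a, Epas1 and Hif3a, the beta subunit Arnt, the prolyl hydroxylases Egln1, Egln2 and Egln3, the asparaginyl hydroxylase Hif1an and the ubiquitin ligase receptor Vhl. They were listed by their function in the pathway, with earlier results of these data known. They were followed in 20 RNA-seq libraries of embryonic C57BL/6 mouse heart, in which floxed Kmt2d, a histone H3 lysine 4 methyltransferase, was deleted by 1 of 3 Cre lines. Mutants carried Cre, Kmt2d fl/fl and the mTmG/+ reporter, and controls (called WT in the sample names) carried Cre, Kmt2d fl/+ and mTmG/+, so the controls of each line also have Cre, the reporter and 1 floxed allele. Mesp1Cre acts in early cardiac mesoderm and was sampled as whole hearts at E9.0 (4 mutants, 4 controls). Tnnt2::Cre acts in cardiomyocytes and was sampled as whole hearts at E11.5 (3 mutants, 3 controls), so in these hearts the cells that are not cardiomyocytes are outside the reach of the deletion. Mef2cAHF::Cre acts in anterior heart field precursors and was sampled as right ventricle with outflow tract at E11.5 (3 libraries labelled mutant, 3 labelled control).

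HIF is a dimer of an alpha subunit, which is unstable in oxygen, and the constant beta subunit ARNT. With oxygen present the EGLN enzymes hydroxylate prolines of the alpha subunit, VHL binds the hydroxylated protein as part of an E3 ubiquitin ligase and the proteasome destroys it, while HIF1AN hydroxylates an asparagine and so blocks the binding of the coactivators p300 and CBP. When oxygen is short the alpha subunit is stable and activates genes of glycolysis, angiogenesis and mitophagy, and Egln1, Egln3 and Hif3a are themselves known as genes that HIF can induce. HIF activity is set mainly on the protein, which RNA-seq does not measure.

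For Mef2cAHF::Cre the titles and genotypes of the labels call 3 libraries mutant whose columns in the table are named WT, and the other 3 the reverse. The titles are followed here, with the groups written as labelled mutant and as labelled control, and the reading by column names, which turns every sign with the same test, is given beside the changes of the 9 genes and otherwise follows by turning the sign. Kmt2d itself (listed as Mll2, with counts over the whole gene and thus also over exons that are not floxed) was at 128 to 144 CPM in Mesp1Cre mutants and 152 to 164 CPM in controls, and at 107 to 116 and 119 to 159 CPM in Tnnt2::Cre. In Mef2cAHF::Cre it was at 187 to 194 CPM in the libraries labelled mutant and 146 to 156 CPM in those labelled control, a direction that goes against the titles. With edgeR this difference passed the threshold at a false discovery rate (FDR) of 0.0359 (log2 0.32 by the titles). The lower levels in Mesp1Cre mutants (-0.21, FDR 0.0764) and Tnnt2::Cre mutants (-0.35, FDR 0.327) did not pass. Library totals ran from 21727258 to 45341870 counts over the series, lowest in Mesp1Cre mutants (21727258 to 24981332). 

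To show the sequence upstream of the 3 genes with a change in any line, the 250 bases before their RefSeq starts are printed here (build GRCm38.p6, 5′ to 3′ on the strand of the gene). The RefSeq promoter table matched 8 of the 9 genes, and Epas1 was not matched. Capitals mark the core of the hypoxia response element, ACGTG or GCGTG, searched on both strands, so that a match on the other strand reads CACGT or CACGC.
Egln1, chr8:124949255-124949504, minus strand: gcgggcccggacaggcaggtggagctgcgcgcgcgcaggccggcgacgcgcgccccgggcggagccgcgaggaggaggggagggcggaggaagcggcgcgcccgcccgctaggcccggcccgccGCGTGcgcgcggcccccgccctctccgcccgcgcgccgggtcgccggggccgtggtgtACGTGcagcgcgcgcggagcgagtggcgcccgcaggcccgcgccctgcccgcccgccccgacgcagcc
Egln3, chr12:54203875-54204124, minus strand: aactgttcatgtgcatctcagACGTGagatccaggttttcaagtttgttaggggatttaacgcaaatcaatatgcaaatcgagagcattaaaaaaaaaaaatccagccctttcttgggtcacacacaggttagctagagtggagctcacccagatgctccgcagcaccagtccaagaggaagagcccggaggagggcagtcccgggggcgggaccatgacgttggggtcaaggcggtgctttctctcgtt
Hif3a, chr7:17062428-17062677, minus strand: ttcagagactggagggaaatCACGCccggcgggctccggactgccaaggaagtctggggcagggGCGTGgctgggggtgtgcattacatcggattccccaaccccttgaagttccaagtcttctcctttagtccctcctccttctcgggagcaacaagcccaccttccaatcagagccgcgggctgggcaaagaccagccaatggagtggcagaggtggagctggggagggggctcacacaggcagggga
Egln1 held a GCGTG that begins 126 bases and an ACGTG that begins 68 bases before the start. Egln3 held 1 ACGTG, 229 bases before the start. Hif3a held GCGTG on the opposite strand 230 bases and on its own strand 186 bases before the start. The 8 matched genes have 9 windows, 2 of them of Egln2, and 7 of the 9 held a core, against 38.6% of all 32851 windows of 250 bases. The 9 windows had from 48% (Egln2) to 86% (Egln1) G and C bases, and the comparison was not matched for this. Hif1an and Vhl held none. ACGTG alone was present in 16.57% of all windows and GCGTG in 28.16%. ACGTG is also contained in the E-box CACGTG, which was present in 6.021% of windows and, among the 8 genes, in Hif1a. A match is a description of the letters and not of binding.

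All 9 genes passed the filter on low counts in every line. Calls are those of edgeR's quasi-likelihood test with the Benjamini-Hochberg adjustment over all genes tested (FDR), levels are counts scaled to library size (CPM) after TMM scaling, and changes are log2 fold changes of mutant minus control with their standard error (SE). In Mesp1Cre 2 of the 9 genes were called, Egln1 and Egln3, both higher in mutants, where 11.47% of all 15883 genes tested were called, 6.17% higher and 5.29% lower. In Mef2cAHF::Cre 1 of the 9 was called, Hif3a, higher in the libraries labelled mutant and thus lower by the column names, where 2.85% of 16920 genes were called, 1.81% higher and 1.04% lower by the titles. In Tnnt2::Cre 1 of the 9 was called, Hif3a, lower in mutants, where 0.293% of 17045 genes were called, 0.0763% higher and 0.217% lower. At an unadjusted p below 0.05 the 9 genes gave 2 in the first line (26.9% of all genes tested), 3 in the second (17.9%) and 3 in the third (11.9%). The median change of the 9, in the same order, was 0.0066, -0.02 (by the titles) and -0.0053, beside -0.0018, -0.0067 and 0.0037 over all genes tested. The changes were thus in 3 of the genes, and the other 6 were not called in any line.

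**Figure D1:**
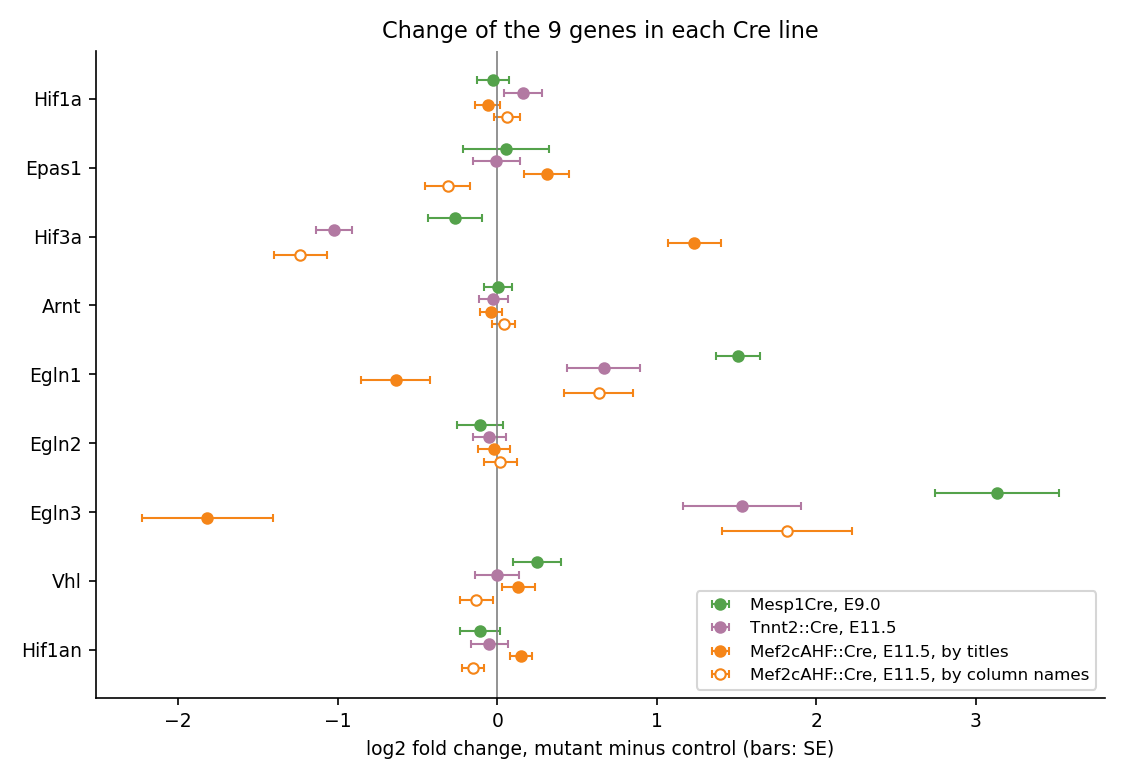
Log2 fold change of mutant minus control (x axis, with SE) of the 9 genes in Mesp1Cre, Tnnt2::Cre and Mef2cAHF::Cre, the last by the titles (filled orange) and by the column names (open orange). Egln1 and Egln3 lie at 1.51 and 3.13 in Mesp1Cre, Hif3a lies at -1.02 in Tnnt2::Cre, and the open points lie on the side of the Tnnt2::Cre points for these 3 genes.

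Egln1 (ENSMUSG00000031987, mm9 chr8:127433304-127472954, minus strand) encodes PHD2, the main prolyl hydroxylase of HIF in most cells under normal oxygen. In Mesp1Cre hearts it had 237, 154, 218 and 165 CPM in mutants 1 to 4. The controls 1 to 4 had 75.6, 74.4, 59.3 and 63.0 CPM. Every mutant was above every control, and mutants 1 and 3 were higher than mutants 2 and 4. Egln1 rose by 1.51 on the log2 scale (SE 0.14, FDR 3.39e-05), a 2.85-fold higher mean of 194 ± 40.4 CPM (SD, n = 4) against 68.1 ± 8.14 CPM (SD, n = 4).

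Egln3 (ENSMUSG00000035105, mm9 chr12:55281251-55304779, minus strand) encodes PHD3, the prolyl hydroxylase best known for strong induction when oxygen is short. It had 26.6, 10.1, 28.3 and 14.9 CPM in Mesp1Cre mutants 1 to 4 and 3.04, 1.59, 1.13 and 3.29 CPM in controls 1 to 4. The groups did not overlap, as was so for 2 of the 9 genes (17.7% of all genes tested), and the same 2 mutants were higher as for Egln1. Egln3 rose by 3.13 on the log2 scale (SE 0.39, FDR 0.00029), from a mean of 2.26 ± 1.06 CPM (SD, n = 4) in controls to 19.98 ± 8.88 CPM (SD, n = 4) in mutants, 8.83-fold higher. Its counts were low, with 28 reads in the control with fewest. Both calls held when any 1 of the 8 libraries was left out.

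Egln2 (ENSMUSG00000058709, mm9 chr7:27943677-27951821, minus strand) encodes PHD1, which HIF is not known to induce. It had 13.2 to 15.7 CPM in Mesp1Cre mutants and 13.5 to 17.7 CPM in controls. The groups overlapped, and the change was -0.11 (SE 0.14, FDR 0.68). The gene shares 11 exonic bases with Cyp2t4 on the opposite strand, and whether counting used strand was not given in the sources used here.

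**Figure D2:**
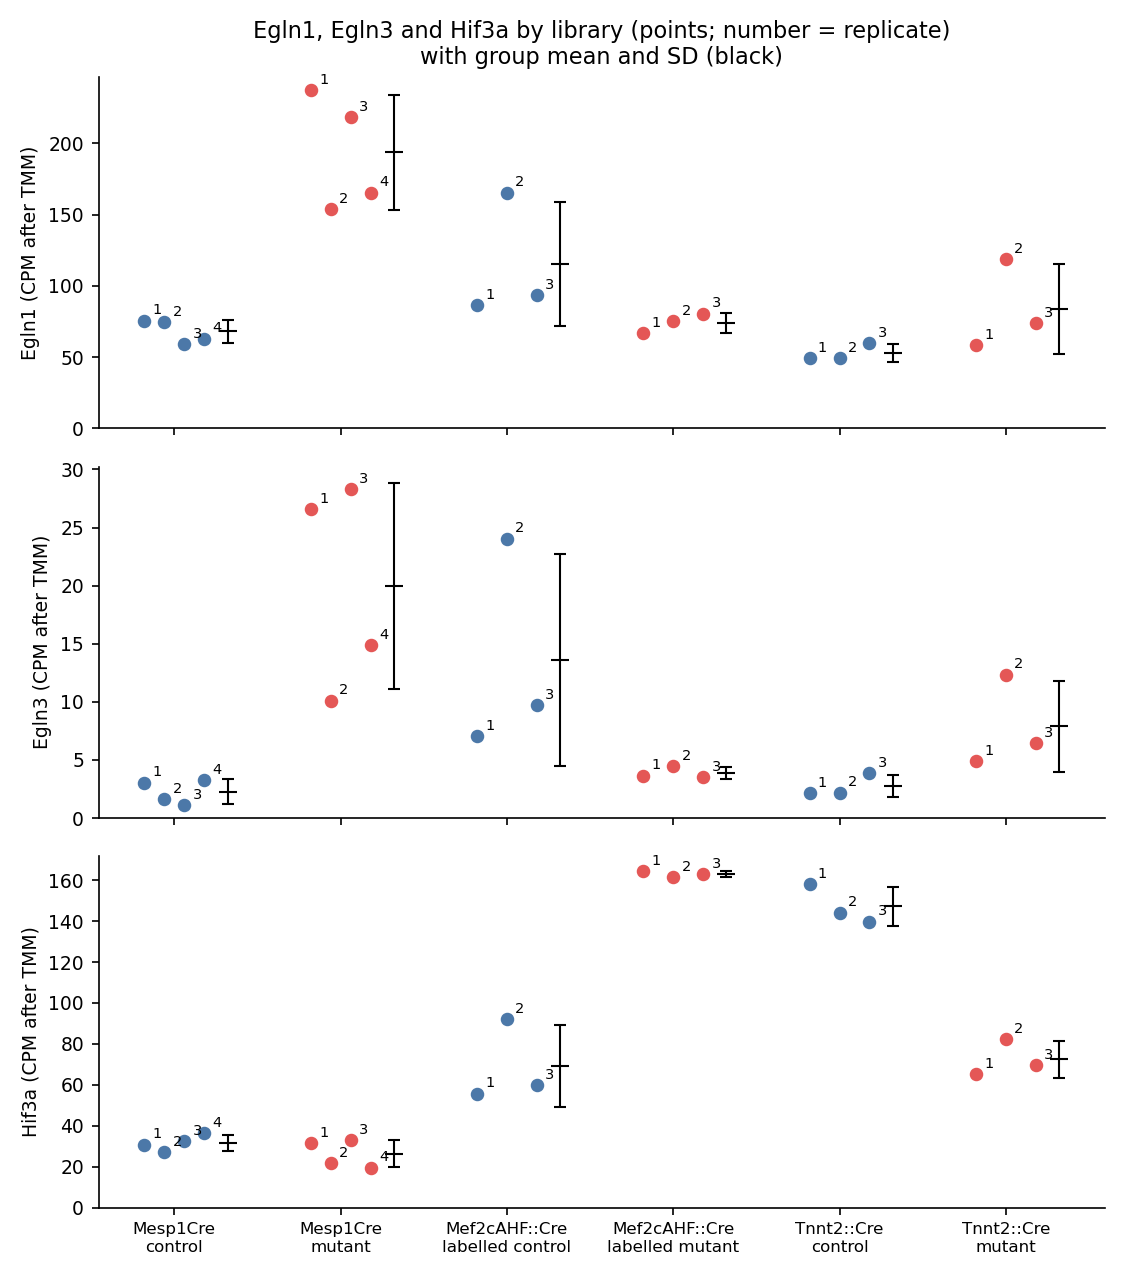
Egln1, Egln3 and Hif3a in each library (y axes, CPM after TMM; points, with the replicate number beside each) with the mean and SD of each of the 6 groups (black). All 4 Mesp1Cre mutants are above their controls in Egln1 and Egln3, and replicate 2 is highest among the Mef2cAHF::Cre libraries labelled control and among the Tnnt2::Cre mutants in all 3 genes.

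In Tnnt2::Cre hearts edgeR called none of the prolyl hydroxylases, while the DESeq2 Wald test called Egln3 (FDR 0.000635). Egln1 had 58.5, 119 and 73.9 CPM in mutants 1 to 3 and 49.1, 49.2 and 60.0 CPM in controls 1 to 3. Mutant 1 lay below control 3, so the groups overlapped, and mutant 2 was far above the rest. The change was 0.67 (SE 0.23, FDR 0.327), and it was 0.33 without mutant 2 (FDR 0.484) and 0.87 without mutant 1 (FDR 0.0232). Egln3 had 4.93, 12.3 and 6.43 CPM in mutants 1 to 3 and 2.17, 2.19 and 3.85 CPM in controls 1 to 3. The groups did not overlap, as for 2 of the 9 genes in this line (17.1% of all genes tested), with mutant 2 again highest. The change was 1.53 (SE 0.37, FDR 0.168), 1.06 without mutant 2 (FDR 0.258) and 1.78 without mutant 1 (FDR 0.0141). Egln2 was at 21.4 to 24.6 CPM in mutants and 24.01 to 24.3 CPM in controls, with a change of -0.05 (SE 0.10, FDR 0.892).

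In Mef2cAHF::Cre edgeR called none of the 3 prolyl hydroxylases with the filter on low counts. The DESeq2 Wald test called Egln3 (FDR 0.0204), and edgeR on all genes with at least 1 count called Egln3 (FDR 1.01e-05) and Egln1 (FDR 0.00328). Egln1 had 66.6, 75.4 and 80.4 CPM in the libraries labelled mutant and 86.5, 165 and 93.7 CPM in those labelled control. The groups did not overlap, as for 4 of the 9 genes here (24% of all genes tested), and labelled control 2 was far above the others of its group. By the titles the change was -0.64 (SE 0.22, FDR 0.162) and by the column names 0.64, and without labelled control 2 it was -0.28 by the titles (FDR 0.116). Egln3 had 3.64, 4.48 and 3.49 CPM in the libraries labelled mutant and 7.05, 24.1 and 9.71 CPM in those labelled control. Again every library labelled control was higher and labelled control 2 was the highest. The change was -1.82 by the titles and 1.82 by the column names (SE 0.41, FDR 0.053). Without labelled control 2 the change by the titles was smaller, -1.11, but with an FDR of 0.0168 it passed the threshold, as it did without labelled control 1 (-2.13, FDR 0.0197). Egln2 was at 18.9 to 21.6 CPM and 18.5 to 22.1 CPM, a change of -0.02 by the titles and 0.02 by the column names (SE 0.10, FDR 0.951).

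Hif3a (ENSMUSG00000004328, mm9 chr7:17616856-17647776, minus strand) encodes the third alpha subunit, whose transcripts give several proteins, among them the inhibitory IPAS form. The counts are over the whole gene and do not separate these forms. In Tnnt2::Cre hearts it had 65.2, 82.4 and 69.7 CPM in mutants 1 to 3 and 158, 144 and 140 CPM in controls 1 to 3. Each mutant was below each control by a wide margin. Hif3a thus fell, with a log2 fold change of -1.02 (SE 0.11, FDR 0.0113), a mean of 72.4 ± 8.9 CPM (SD, n = 3) in mutants and 147 ± 9.52 CPM (SD, n = 3) in controls, 2.03-fold lower. The call, not the size, depended on single libraries. Without mutant 3 the FDR was 0.0938, and without control 1, 2 or 3 it was 0.0735, 0.0614 or 0.0837, with changes from -1.06 to -0.98. On the authors' FPKM, where the median of all genes lay at 0.11, the change was -0.91 with an FDR of 0.125.

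In Mef2cAHF::Cre Hif3a had 164, 161 and 163 CPM in the libraries labelled mutant and 55.7, 92.0 and 59.7 CPM in those labelled control. The first group was tight and the second was spread, with labelled control 2 highest. Hif3a was higher by 1.24 on the log2 scale in the libraries labelled mutant (SE 0.17, FDR 0.00847), a 2.35-fold difference between means of 163 ± 1.51 and 69.1 ± 19.9 CPM (SD, n = 3 each). By the column names this is a fall of the same size, -1.24. Without labelled mutant 1 or 2 the FDR was 0.0526 or 0.0607 at changes of 1.23 and 1.24, and without labelled control 2 the change stayed positive with an FDR of 1.94e-05. In Mesp1Cre hearts Hif3a was low in both genotypes, with 31.5, 21.9, 32.9 and 19.6 CPM in mutants and 30.9, 27.2, 32.7 and 36.6 CPM in controls. Those groups overlapped, and the change was -0.27 (SE 0.17, FDR 0.343).

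Hif1a (ENSMUSG00000021109, mm9 chr12:75002362-75048517, plus strand), the alpha subunit present in nearly all cells, was not called in any line. It ran from 283 to 369 CPM in Mesp1Cre mutants and from 284 to 368 CPM in controls, nearly the same range. The changes were -0.03 in Mesp1Cre (SE 0.10, FDR 0.896), -0.06 in Mef2cAHF::Cre by the titles and 0.06 by the column names (SE 0.08, FDR 0.761) and 0.16 in Tnnt2::Cre (SE 0.12, FDR 0.649). Of its exonic bases 5.6% overlap Gm15283 on the opposite strand, which had at most 1451 counts in a library where Hif1a had at least 6845 over the series. Epas1 (ENSMUSG00000024140, mm9 chr17:87153482-87230921, plus strand), the HIF-2 alpha subunit known for endothelial expression, was low, from 3.97 CPM in a Mesp1Cre mutant to 19.9 CPM in a library labelled mutant. Its changes were 0.05 in Mesp1Cre (SE 0.27, FDR 0.926), 0.31 in Mef2cAHF::Cre by the titles and -0.31 by the column names (SE 0.14, FDR 0.292) and -0.01 in Tnnt2::Cre (SE 0.15, FDR 0.994). The groups overlapped in all 3 lines for both genes.

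Arnt (ENSMUSG00000015522, mm9 chr3:95238310-95301159, plus strand), the dimer partner of all alpha subunits, was steady, between 69.8 and 91.8 CPM in every library. Its change was 0.0066 for Mesp1Cre, -0.02 for Tnnt2::Cre and, for Mef2cAHF::Cre, -0.04 by the titles or 0.04 by the column names, with SE from 0.07 to 0.09. Vhl (ENSMUSG00000033933, mm9 chr6:113573953-113581627, plus strand) was at 18.2 to 19.8 CPM in Mesp1Cre mutants and 11.9 to 19.2 CPM in controls, a change of 0.25 (SE 0.15, FDR 0.31). For Mef2cAHF::Cre its change was 0.13 by the titles or -0.13 by the column names (SE 0.10), and for Tnnt2::Cre it was -0.00099 (SE 0.14). Hif1an (ENSMUSG00000036450, mm9 chr19:44637340-44650764, plus strand), the asparaginyl hydroxylase, had 39.5 to 42.5 CPM in the Mef2cAHF::Cre libraries labelled mutant and 35.8 to 37.7 CPM in those labelled control. These groups did not overlap, with a change of 0.15 by the titles and -0.15 by the column names (SE 0.07, FDR 0.288). In Mesp1Cre and Tnnt2::Cre the groups overlapped, with changes of -0.11 (SE 0.12, FDR 0.634) and -0.05 (SE 0.12, FDR 0.908).

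The size of the change was then compared between lines in 1 edgeR fit of all 6 groups. Both comparisons with Mef2cAHF::Cre use the same 6 libraries of that line. By the titles 3 of the 9 genes differed between Mesp1Cre and Mef2cAHF::Cre (11.3% of 18391 genes did). The change of Egln3 was larger in Mesp1Cre by 4.93 (SE 0.66, FDR 7.71e-05) and that of Egln1 by 2.13 (SE 0.32, FDR 0.000225), and that of Hif3a differed by -1.52 (SE 0.24, FDR 0.000434). By the titles the same 3 genes differed between Tnnt2::Cre and Mef2cAHF::Cre (3.19% of genes did), by 3.34 for Egln3 (SE 0.68, FDR 0.0085), 1.30 for Egln1 (SE 0.34, FDR 0.0372) and -2.26 for Hif3a (SE 0.26, FDR 3.22e-05). With the replicate block 2 of these 3 passed.

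By the column names 0 of the 9 genes differed in either comparison with Mef2cAHF::Cre. Between Mesp1Cre and Mef2cAHF::Cre, where 1.63% of genes differed by this reading, 2 of the 9 had an unadjusted p below 0.05 (16.2% of genes did), and the DESeq2 Wald test called 1. The values were 0.95 for Hif3a (SE 0.24, FDR 0.0524), 0.86 for Egln1 (SE 0.31, FDR 0.176) and 1.30 for Egln3 (SE 0.63, FDR 0.318), and 2 of the 9 were called without labelled control 2. Between Tnnt2::Cre and Mef2cAHF::Cre, where 0% of genes differed by this reading, 0 of the 9 had an unadjusted p below 0.05 (2.57% of genes did) and DESeq2 also called 0. The differences were 0.21 for Hif3a (SE 0.25), 0.03 for Egln1 (SE 0.33) and -0.29 for Egln3 (SE 0.67).

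Between Mesp1Cre and Tnnt2::Cre 0 of the 9 genes differed by edgeR (3.04% of genes did), 3 had an unadjusted p below 0.05 (19.2% of genes did), and DESeq2 called 1. The change was larger in Mesp1Cre by 0.83 for Egln1 (SE 0.31, FDR 0.15) and by 1.59 for Egln3 (SE 0.64, FDR 0.174), and it differed by 0.74 for Hif3a (SE 0.24, FDR 0.0972). The 2 lines thus have a call in different genes, but the difference between them did not pass the threshold in any of the 9. It did in 1 gene without Mesp1Cre mutant 4 or without Tnnt2::Cre mutant 2.

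Levels were compared between genes on the authors' FPKM, which divide by gene length. In E9.0 controls Hif1a was the highest of the 9 at 56.5 ± 5.43 FPKM (SD, n = 4), followed by Egln1 at 25.6 ± 2.67 and Arnt at 9.48 ± 0.26, each apart from the next without overlap. Hif1an, Egln2, Vhl and Hif3a followed between 5.58 and 4.49 FPKM, neighbours overlapping, and Epas1 at 1.85 ± 0.46 and Egln3 at 1.63 ± 0.76 were lowest and overlapped. In the Mesp1Cre mutants Egln1 reached 81.6 ± 17.5 FPKM and overlapped Hif1a at 62.0 ± 8.28, and Egln3 moved from the ninth place to the third at 16.1 ± 7.20, where it overlapped Arnt. In E11.5 controls of Tnnt2::Cre the order began with Hif1a at 41.9 ± 3.71, Hif3a at 21.1 ± 1.91 and Egln1 at 20.2 ± 1.85 FPKM (SD, n = 3), of which the last 2 overlapped. In the Tnnt2::Cre mutants Hif3a was at 11.3 ± 2.31 and overlapped Arnt at 9.61 ± 1.37.

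The make-up of the 2 families follows from these levels. Of the summed FPKM of the 3 alpha subunits, Hif3a took 7.19% ± 1.20 in Mesp1Cre controls and 6.03% ± 0.83 in mutants (SD, n = 4), while Hif1a took 89.8% and 90.8%. In Tnnt2::Cre the share of Hif3a was 31.5% ± 2.80 in controls and 17.0% ± 2.76 in mutants (SD, n = 3), with no overlap (at least 28.3% and at most 20.2%). In Mef2cAHF::Cre it was 31.2% ± 0.88 in the libraries labelled mutant and 15.9% ± 4.78 in those labelled control (SD, n = 3). The E11.5 groups with the higher share are the Tnnt2::Cre controls and the libraries labelled mutant, which the column names call WT. Among the prolyl hydroxylases Egln1 took most in every group, from 66.1% in Tnnt2::Cre controls to 79.5% in Mesp1Cre mutants. Egln3 took 4.98% ± 2.30 in Mesp1Cre controls and 15.0% ± 3.69 in mutants, while the share of Egln2, whose own level was not called, was 16.2% ± 1.02 and 5.46% ± 0.90 (SD, n = 4).

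**Figure D3:**
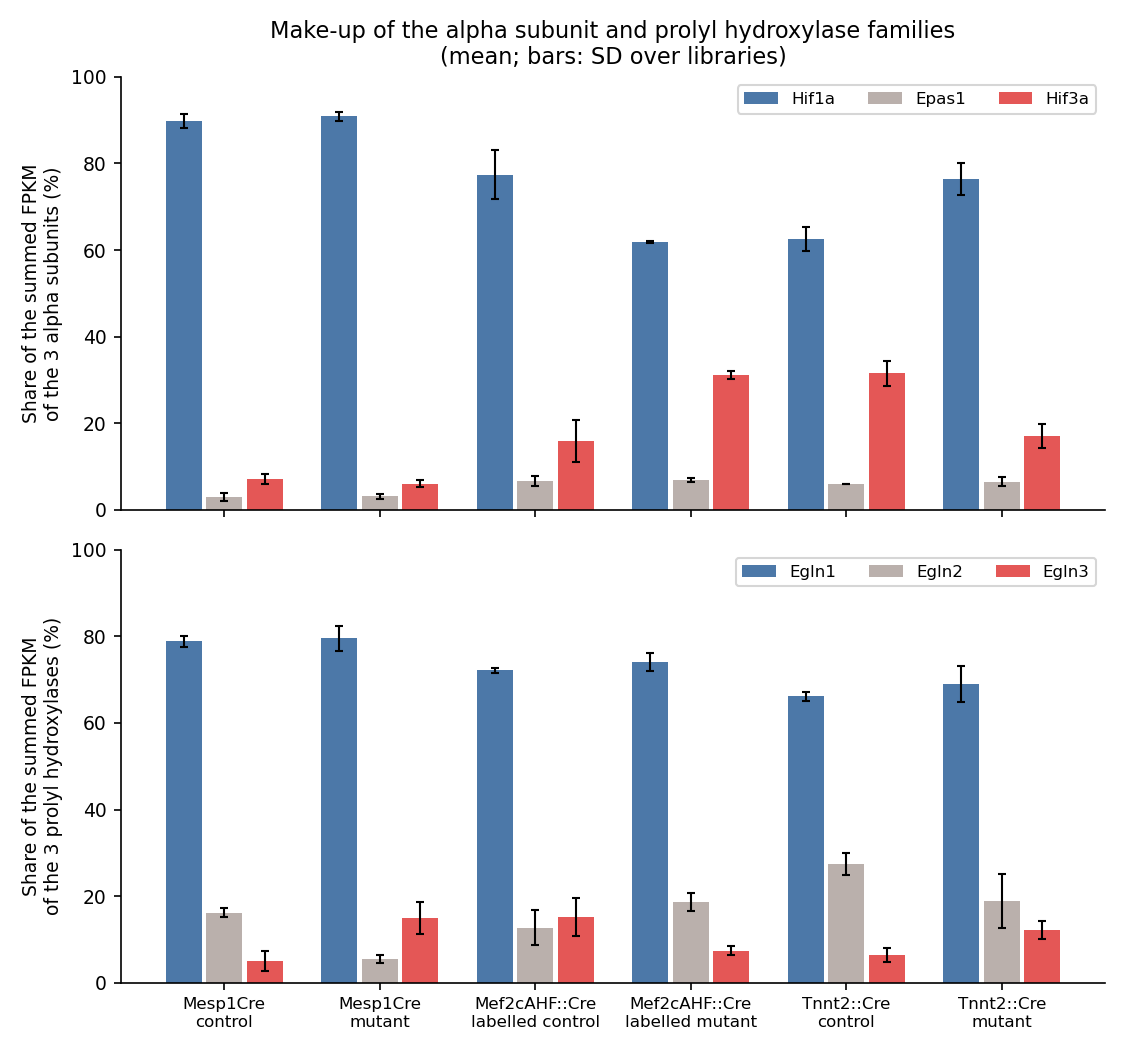
Share of each gene in the summed FPKM of the 3 alpha subunits (upper) and of the 3 prolyl hydroxylases (lower), in percent, as mean and SD over the libraries of each of the 6 groups. The share of Hif3a is 31.5% in Tnnt2::Cre controls and 17.0% in mutants, and that of Egln3 is 4.98% in Mesp1Cre controls and 15.0% in mutants.

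Control whole hearts at E11.5 were also compared with those at E9.0, which differ in Cre line and, since the protocol describes sequencing by group of mutants and controls, in sequencing as well as in stage, so that the 3 cannot be told apart. Of the 9 genes 5 were called, 4 higher and 1 lower at E11.5, where 39.6% of all genes were called. Hif3a had 26.7 to 36.2 CPM at E9.0 and 148 to 166 CPM at E11.5 and was 4.93-fold higher (log2 2.30, SE 0.17, FDR 7.65e-09). Epas1 went from 6.33 ± 1.60 CPM (SD, n = 4) to 14.4 ± 1.15 CPM (SD, n = 3), a difference of 1.19 (SE 0.21, FDR 0.000189). Egln2 was higher by 0.73 (SE 0.11, FDR 4.29e-05) and Hif1an by 0.27 (SE 0.11, FDR 0.0497). In these 4 genes the stages did not overlap, and the share of all genes without overlap was not counted for this comparison. Hif1a was lower by 0.36 on the log2 scale (SE 0.11, FDR 0.0139), with 278 to 362 CPM at E9.0 and 228 to 285 CPM at E11.5, which overlap. The 2 enzymes called in the Mesp1Cre mutants did not pass: Egln1 was at 67.1 ± 8.20 and 55.5 ± 7.04 CPM (FDR 0.353) and Egln3 at 2.24 ± 1.06 and 2.88 ± 1.04 CPM (FDR 0.578). The count was 4 of the 9 with DESeq2 size factors, with the DESeq2 Wald test or with all genes of at least 1 count, and 3 without Tnnt2::Cre control 2.

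**Figure D4:**
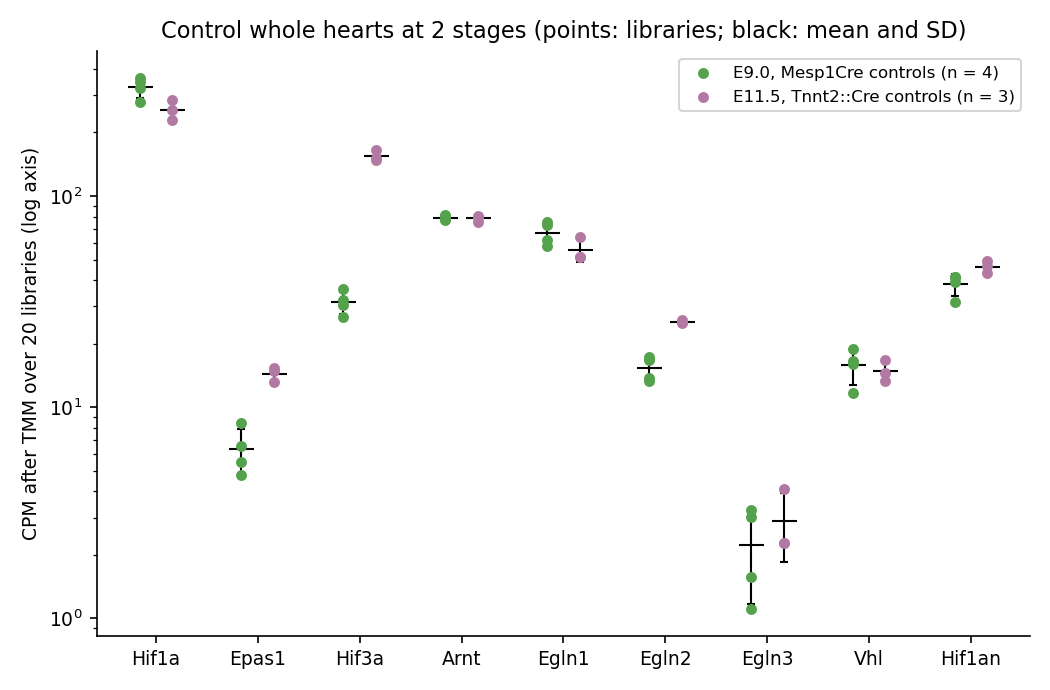
CPM (log axis, TMM over all 20 libraries) of the 9 genes in control whole hearts at E9.0 (green, Mesp1Cre controls, n = 4) and E11.5 (purple, Tnnt2::Cre controls, n = 3), with mean and SD in black. Hif3a moves most, from a mean of 31.4 CPM to 155 CPM, while Arnt is at 79.1 and 78.7 CPM.

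The rest of the pathway was read from lists compiled by hand. Of 46 HIF target genes (glycolysis, angiogenesis, mitophagy and matrix enzymes) 45 were tested in each line. In Mesp1Cre 40 of 45 were called higher in mutants and 0 called lower (6.17% and 5.29% of all genes). The change was positive in 44 of 45, with a median of 1.14 (-0.0018 over all genes), beside Egln1 at 1.51 and Egln3 at 3.13. Among the called genes were Igfbp3, which binds insulin-like growth factors (2.52, SE 0.18, FDR 1.17e-05), the mitophagy receptor Bnip3 (1.90, SE 0.14, FDR 1.29e-05) and the mitochondrial protein Higd1a (1.31, SE 0.10, FDR 1.55e-05). In Mef2cAHF::Cre 4 of 45 were called lower in the libraries labelled mutant (1.04% of all genes were), thus higher by the column names. By the titles 43 of 45 were negative, with a median of -0.57. The called genes include the glycolytic enzyme Eno1 (-0.73, SE 0.10, FDR 0.0109), the glucose transporter Slc2a3 (-1.63, SE 0.27, FDR 0.0193) and Pfkfb3, which drives glycolysis (-1.06, SE 0.20, FDR 0.033). The count of called genes was 0 without any 1 of the 3 libraries labelled mutant and 10 without labelled control 1 or 2. In Tnnt2::Cre edgeR called 0 of 45, 29 had an unadjusted p below 0.05 (11.9% of all genes did), DESeq2 called 7, and 41 of 45 were positive with a median of 0.54. Without Tnnt2::Cre mutant 1 the count was 25.

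The partners of VHL and the HIF coactivators were read in the same way, against 11.47% of all genes called with Mesp1Cre, 2.85% with Mef2cAHF::Cre and 0.293% with Tnnt2::Cre, and, in that order, 26.9%, 17.9% and 11.9% at an unadjusted p below 0.05. Of 6 genes of the VHL ubiquitin ligase 1 was called in Mesp1Cre and 0 in the other lines, and it was Nedd8, the modifier that activates cullins (-0.41, SE 0.11, FDR 0.0307). At an unadjusted p below 0.05 Mesp1Cre gave 2 of the 6, Mef2cAHF::Cre 3 and Tnnt2::Cre 0. Of 12 coactivators and chaperones 1 was called higher in Mesp1Cre, the acetyltransferase Ep300 (0.24, SE 0.07, FDR 0.0466), and 1 called lower, Cited4 (-0.89, SE 0.27, FDR 0.047), which competes for p300. In Mef2cAHF::Cre Cited1, of the same family, was higher in the libraries labelled mutant and lower by the column names (1.75 by the titles, SE 0.31, FDR 0.025), and in Tnnt2::Cre 0 of 12 were called by edgeR, with 0 at an unadjusted p below 0.05. Of 10 regulators of the hydroxylases and related dioxygenases, the cochaperone Ptges3 was lower in Mesp1Cre (-0.44, SE 0.10, FDR 0.0133) and 0 were called in the other lines, which had 1 each at an unadjusted p below 0.05. Of the relatives of HIF in the bHLH-PAS family, of which 8 to 9 of 11 were tested, Npas4 was higher in Mesp1Cre (0.91, SE 0.26, FDR 0.0428) and 0 were called in the other lines, and 1 Mef2cAHF::Cre and 0 Tnnt2::Cre changes had an unadjusted p below 0.05.

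Of 15351 genes tested in every line, those whose levels ran most like a given member over the 20 libraries were named by the root mean square difference in log2 CPM after centring each line. For Egln1 they were Ero1l (0.083), an oxidase of the endoplasmic reticulum, the lysyl hydroxylase Plod2 (0.088) and Prelid2 (0.11), where the median gene was at 0.65 and the spread of Egln1 itself was 0.59. For Egln3 they were the secreted glycoprotein Stc2 (0.41), Ier3 (0.44) and the repressor Bhlhe40 (0.49), with a median gene at 1.30. For Hif3a they were the laminin receptor Bcam (0.23), the actin-severing protein Gsn (0.24) and the muscle enolase Eno3 (0.28), with a median gene at 0.56. Ero1l, Plod2, Stc2 and Bhlhe40 are also on the list of HIF target genes. Centring was by line and not by genotype, so the difference between mutants and controls is part of the measure. Each gene named was called, with the same sign, in every line where its member was called. The libraries share their depth and tissue within a line, and the measure is a description without a test.

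Bulk RNA cannot tell fewer cells of a type from less RNA per cell, so marker genes were summed in each library. Of all genes tested, 6.17% were called higher and 5.29% lower in Mesp1Cre. By the titles 1.81% were called higher and 1.04% lower in Mef2cAHF::Cre, and the shares in Tnnt2::Cre were 0.0763% and 0.217%. Cardiomyocyte markers (10 of 10 tested) were abundant throughout, from 14337 to 30609 CPM, and in Mesp1Cre the groups overlapped (25250 to 30209 CPM in mutants, 22407 to 30609 CPM in controls). Of these 10, Ryr2 was called higher (0.58, FDR 0.00714) and Tnni3 lower (-0.78, FDR 0.00215) in Mesp1Cre, and Tnni3 was higher by the titles in Mef2cAHF::Cre (1.09, FDR 0.000697). Foregut and liver markers summed to 11.8 CPM in Tnnt2::Cre mutant 2, the library with most Egln1 and Egln3 of its line, and to at most 2.8 CPM in every other library of that line. Most of this sum was 1 gene, Afp, at 8.67 CPM (2.22 for the line, FDR 0.511). Ttr, the other gene tested, had a change of -1.07 (FDR 0.431). Epicardial and cushion mesenchyme sums overlapped between the groups in all 3 lines, although Col3a1 of the cushion list was called lower in Mesp1Cre (-0.63, FDR 0.0495). Macrophage sums overlapped at E11.5. In Mesp1Cre the sums were low, at 1.77 to 4.25 CPM in mutants and 7.62 to 17.1 CPM in controls, with 1 of 3 tested called lower. The called gene was Lyz2, with means of 0.95 CPM in mutants and 7.93 CPM in controls. Csf1r was at 1.24 and 1.05 CPM (FDR 0.814) and Fcer1g at 0.74 and 0.98 CPM (FDR 0.76). Endothelial and endocardial markers summed to 676 to 795 CPM in Mesp1Cre mutants and 521 to 617 CPM in controls, with 3 of 8 called higher. In Mef2cAHF::Cre they were at 652 to 680 CPM in the labelled mutants and 577 to 624 CPM in the labelled controls, with 1 of 8 called higher by the titles, and in Tnnt2::Cre the groups overlapped. Endothelial sums were thus higher in the Mesp1Cre mutants, as Egln1 and Egln3 were. The called genes were Kdr (0.74), Npr3 (0.62) and Pecam1 (0.51), and those not called ran from -0.03 (Tek) to 0.23 (Cdh5). The highest sum was in mutant 4 (795 CPM), which was below mutants 1 and 3 in both enzymes. In Mef2cAHF::Cre the higher sums were in the labelled mutants, the group with lower Egln1 and Egln3 (neither called). The part of endothelial RNA in these levels was not tested.

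Erythroid RNA moved more. In Mesp1Cre 5 of 9 erythroid genes in the table were called lower in mutants, as were 5.29% of all genes tested. The sums were 1958 to 7673 CPM in mutants against 5520 to 18151 CPM in controls. In Mef2cAHF::Cre the sums were 25294 to 47921 CPM in the libraries labelled mutant and 7367 to 32652 CPM in those labelled control. By the titles 1 of 9 was called higher there, as were 1.81% of all genes tested. In Tnnt2::Cre the sums were 18181 to 123512 CPM in mutants and 96774 to 151427 CPM in controls (0 of 9 called, 0.293% of all genes tested). The library with most Egln1 and Egln3 in Tnnt2::Cre (mutant 2) and in Mef2cAHF::Cre (labelled control 2) was the one with the lowest erythroid sum of its line, 18181 and 7367 CPM. The same libraries also had the highest cushion mesenchyme sum of their line, 951 and 1526 CPM. Mutant 2 had the highest endothelial sum of Tnnt2::Cre (648 CPM). Labelled control 2 had the lowest cardiomyocyte sum (14337 CPM) and the highest epicardial sum (225 CPM) of Mef2cAHF::Cre. In Mesp1Cre mutants 1 and 3, higher in both enzymes, were at erythroid sums of 1958 and 3462 CPM and mutants 4 and 2 at 4501 and 7673 CPM. Among the Mesp1Cre controls the order was different for Egln3, since control 4, with the highest erythroid sum (18151 CPM), also had the most Egln3 (3.29 CPM). For Egln1, controls 1 and 2 had 75.6 and 74.4 CPM at erythroid sums of 11375 and 5520 CPM. Controls 3 and 4 had less Egln1, 59.3 and 63.0 CPM, at sums of 13379 and 18151 CPM. Across genotypes the order did not hold. Mesp1Cre control 2 had less erythroid RNA (5520 CPM) than mutant 2 (7673 CPM) but 1.59 CPM of Egln3 against 10.1 and 74.4 CPM of Egln1 against 154. Tnnt2::Cre mutant 1, at 123512 CPM within the range of the controls, had 4.93 CPM of Egln3 against 2.17 to 3.85 in controls. Its Egln1, at 58.5 CPM, was within the control range of 49.1 to 60.0 CPM, and its Hif3a (65.2 CPM) was the lowest of the line. The part of erythroid RNA in these levels was not tested beyond these values.

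**Figure D5:**
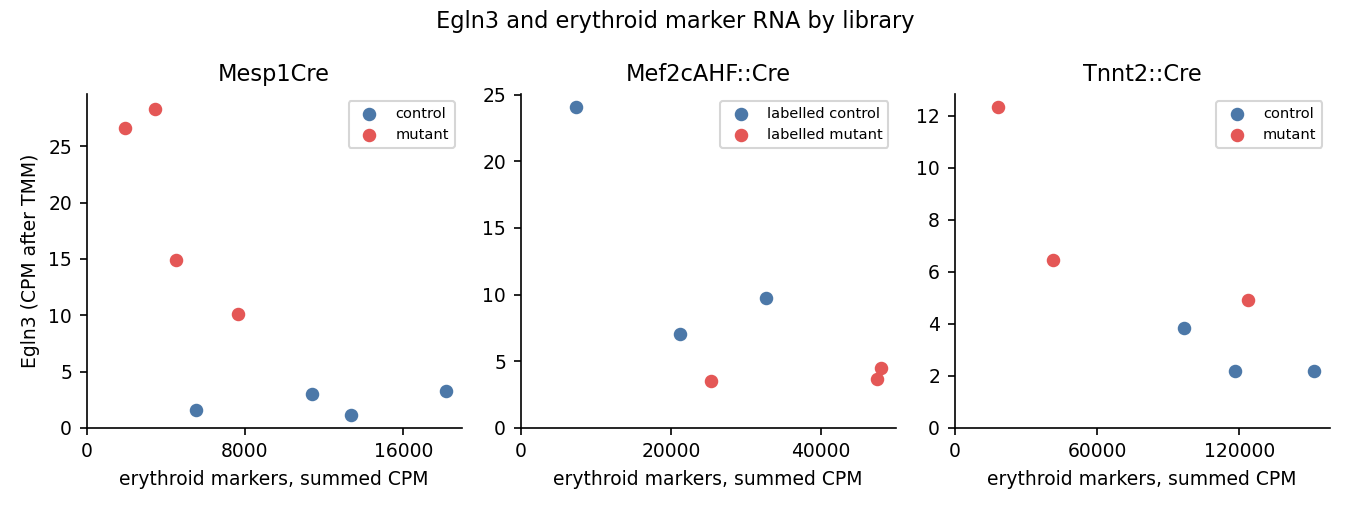
Egln3 (y axis, CPM after TMM) against the summed CPM of 9 erythroid marker genes (x axis) for each library of the 3 lines, controls in blue and mutants in red as labelled. The highest Egln3 of Mef2cAHF::Cre and Tnnt2::Cre is in the library with the lowest erythroid sum, while Mesp1Cre control 2 has less erythroid RNA than mutant 2 and 1.59 CPM of Egln3 against 10.1.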

How the data were processed

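RNA-seq of embryonic heart RNA was analysed from the deposited table of 20 libraries. The authors aligned the reads to mm9 (TopHat2 2.0.8b per the submitters' processing notes), counted them per gene with featureCounts and deposited the raw counts of each library. The FPKM beside each count were computed by the authors with USeq, and 20 columns of variance-corrected values were not used. Library preparation is given in 2 ways by the labels (NuGEN or TruSeq kits), the age of Mesp1Cre hearts is E9.0 in the sample labels and E11.5 in their protocol, and the strand setting of the counting is not given in the sources used here. Nothing in the labels says that libraries are single embryos or separate litters. The p-values thus weigh each difference against the spread between these libraries, whose independence is not known.

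Libraries were grouped by titles and genotypes. The fits used edgeR 4.0.16 under R 4.3.3 (filterByExpr, TMM, glmQLFit and glmQLFTest, FDR below 0.05), each line by itself, and line and stage differences in a fit of 6 groups. The SE is the log2 fold change divided by the square root of F. The alternatives were DESeq2 size factors, the Wald test of DESeq2 1.42.0, all genes with at least 1 count, the 6-group fit, a replicate block, limma 3.58.1 (limma-trend) on log2(FPKM + 0.1) of the deposited FPKM, and each replicate left out. The fits were checked on simulated counts. Log2 CPM for likeness used a prior count of 2. All 9 members were named, with up to 3 genes of lowest FDR per pathway list, line and direction and the 3 genes most like each called member. Hilpda and Ak4 were matched by the table's older symbols. The members and lists were chosen with earlier results of these data known. No replicate pair was a repeat of 1 library by a chi-square test of the counts. Same-numbered mutants and controls of a line deviated from their group means with correlations from -0.036 to 0.177, so the numbers were not taken as pairs. mm9 coordinates are 1-based, and promoter windows are RefSeq's on GRCm38.p6.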

Additional observations from a re-analysis of the deposited data

Results flagged for a closer look

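By the titles, the change of 3 genes in Mef2cAHF::Cre differed from that in the other lines when the difference itself was tested by an interaction in edgeR. Against Mesp1Cre the differences (Mesp1Cre minus Mef2cAHF::Cre) were -1.52 for Hif3a, 2.13 for Egln1 and 4.93 for Egln3 on the log2 scale. Against Tnnt2::Cre they were -2.26 for Hif3a, 1.30 for Egln1 and 3.34 for Egln3. By the column names 0 of the 9 genes differed in either comparison by edgeR, with 2 and 0 at an unadjusted p below 0.05 and 1 and 0 called by DESeq2. In the 2 groups of 4 no library was flagged as standing apart from its group in the 9 genes. Groups of 3 were not examined for this flag. In those groups Tnnt2::Cre mutant 2 and Mef2cAHF::Cre labelled control 2 were far above the rest of their group in Egln1.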

How the results depend on the processing

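The count of 2 called genes in Mesp1Cre held in every alternative, and the count of 3 differences by the titles between Mesp1Cre and Mef2cAHF::Cre held in those run for it (both uses of DESeq2, all genes, the block and each replicate left out). In Mef2cAHF::Cre the 1 called gene became 2 with the DESeq2 Wald test, 3 with all genes of at least 1 count and 2 with the replicate block, and ran from 0 to 2 when 1 replicate was left out (0 without labelled mutant 1 or 2). In Tnnt2::Cre the 1 called gene became 2 with DESeq2, which added Egln3, and 0 on the FPKM, and ran from 0 to 3 when 1 replicate was left out (3 without mutant 1, 0 without mutant 3 or any control). With 1 replicate left out the Mesp1Cre count stayed at 2 and the stage count ran from 3 to 5, against 4 with either use of DESeq2 and with all genes. Line differences by the column names against Mesp1Cre went from 0 to 1 with DESeq2 and with all genes (0 to 2 with 1 replicate left out), those between Mesp1Cre and Tnnt2::Cre from 0 to 1 with both (0 to 1), and those by the titles were 3 to 3 and 2 to 3. HIF target genes called in Mesp1Cre ran from 38 to 41 with 1 replicate left out. In Mef2cAHF::Cre they went from 4 to 11 with DESeq2, 25 with all genes and 2 on the FPKM (0 to 10), and in Tnnt2::Cre from 0 to 7, 2 with all genes and 1 in the 6-group fit (0 to 25). All genes called went from 1821 to 3593 in the 6-group fit of Mesp1Cre (1052 to 2161 with 1 replicate left out). In Mef2cAHF::Cre they went from 482 to 1103 with DESeq2, 1311 with all genes, 291 on the FPKM and 129 in the 6-group fit (75 to 662), and in Tnnt2::Cre from 50 to 368, 120, 22 and 82 and to 28 with the replicate block (4 to 896). The cause of these shifts was not tested.

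The replicate block, which takes numbers that are not pairs, left the counts of Mesp1Cre (2) and Tnnt2::Cre (1) as they were and added Egln3 in Mef2cAHF::Cre (-1.64 by the titles, FDR 0.0205), while the differences by the titles between Tnnt2::Cre and Mef2cAHF::Cre went from 3 to 2. The FPKM shifted the median of all genes by 0.15, -0.13 and 0.11 in Mesp1Cre, Mef2cAHF::Cre and Tnnt2::Cre, and the genes called were then 1635 higher and 289 lower (980 and 841 on the counts), 111 and 180 (306 and 176) and 7 and 15 (13 and 37). Of the uncalled genes the sign turned on the FPKM for Hif1a (0.13), Egln2 (0.056) and Hif1an (0.052) in Mesp1Cre, Vhl (-0.0042) in Mef2cAHF::Cre, and Epas1 (0.10), Arnt (0.089), Egln2 (0.062), Hif1an (0.059) and Vhl (0.11) in Tnnt2::Cre, where Vhl was also 0.0025 with all genes, and Arnt was -0.011 in the 6-group fit of Mesp1Cre. With 1 replicate left out the sign turned for Arnt (-0.053 to 0.061 in Mesp1Cre, -0.069 to 0.010 in Mef2cAHF::Cre and -0.074 to 0.010 in Tnnt2::Cre), Egln2 (-0.098 to 0.039 in Mef2cAHF::Cre, -0.089 to 0.011 in Tnnt2::Cre), Epas1 (-0.065 to 0.25 in Mesp1Cre, -0.091 to 0.12 in Tnnt2::Cre), Hif1a (-0.098 to 0.048 in Mesp1Cre), Hif1an (-0.16 to 0.020 in Tnnt2::Cre) and Vhl (-0.078 to 0.090 in Tnnt2::Cre). Among the 9 genes the lowest count in any library was 28 reads, for Egln3, and what set the SE of Egln3 was not tested.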
